A study of Mus musculus with 6 samples.

Results

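Fatty acids reach the hepatocyte through a small set of membrane and cytosolic proteins, and the transcripts of 10 such genes were examined in mouse liver. They comprise the lipid uptake receptors Cd36 and Vldlr, the fatty acid transport proteins Slc27a1, Slc27a2, Slc27a4 and Slc27a5, and the fatty acid binding proteins Fabp1, Fabp2, Fabp4 and Fabp5. These genes were chosen with earlier results of these data known. They were 10 of the 55385 genes in the deposited count table, and all 10 had enough counts to be among the 14454 genes tested. The livers came from wild-type C57BL/6 male mice that entered the study at 6 to 8 weeks of age and ate a high-fat diet (HFD) for 10 weeks before an operation and for another 12 weeks after it. The 3 VSG mice underwent vertical sleeve gastrectomy, which removes most of the stomach, and the 3 sham mice underwent a sham operation. The diet was common to both groups, no lean or unoperated mice were sequenced in this comparison, and the feeding state at tissue collection is not given in the sources used here. Each liver gave 1 poly(A) RNA-seq library, with 22804397 to 24191778 counts per library. The comparison asks which of these genes differ in expression after VSG.

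Long-chain fatty acids circulate bound to albumin or are released from lipoproteins. CD36 facilitates their entry at the plasma membrane, and the SLC27 proteins couple uptake to activation as acyl-CoA. Inside the cell the fatty acid binding proteins carry the poorly soluble fatty acids to sites of oxidation, esterification or gene regulation. The VLDL receptor binds triglyceride-rich lipoproteins and is scarce in the healthy liver. Several of these genes are known targets of the peroxisome proliferator-activated receptors (PPARs), which bind fatty acids and recognise a direct repeat of a short half-site with a spacing of 1 base.

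Stretches before the start sites of 3 of the genes are shown because Cd36 and Fabp2 fell under every alternative setting tried and Fabp1 was the most abundant transcript of the 10. RefSeq starts were listed for 7 of the 10 genes (10 starts, GRCm38) and not for Fabp4, Fabp5 or Slc27a5. The 250 bases before each start were searched on both strands for a direct repeat (AGGNCA, then any 1 base, then AGGNCA again), for the half-site AGGTCA, which can lie inside the repeat, and for the TATA sequence TATAAA. Capitals mark a repeat or a half-site. The stretch of Cd36 is chr5:17835897-17836146 on the minus strand, inside the annotated gene but outside its exons. That of Fabp2 is chr3:122894822-122895071 on the plus strand, and that of Fabp1 is chr6:71199629-71199826 on the plus strand, which ends before the first annotated exon.
Cd36: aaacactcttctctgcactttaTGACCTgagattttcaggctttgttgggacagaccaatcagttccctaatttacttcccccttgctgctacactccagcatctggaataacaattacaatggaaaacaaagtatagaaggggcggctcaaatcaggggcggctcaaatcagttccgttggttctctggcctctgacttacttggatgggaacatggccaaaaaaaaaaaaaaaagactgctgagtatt
Fabp2: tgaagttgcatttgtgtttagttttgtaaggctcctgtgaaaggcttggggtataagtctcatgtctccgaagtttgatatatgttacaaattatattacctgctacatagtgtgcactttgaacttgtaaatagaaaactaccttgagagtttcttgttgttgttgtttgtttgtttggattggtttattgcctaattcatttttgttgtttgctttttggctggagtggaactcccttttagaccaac
Fabp1: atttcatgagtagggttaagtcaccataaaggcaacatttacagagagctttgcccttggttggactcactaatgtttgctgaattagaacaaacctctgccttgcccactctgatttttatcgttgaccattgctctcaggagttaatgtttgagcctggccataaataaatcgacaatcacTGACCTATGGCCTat
The direct repeat occurred before Fabp1, on the reverse strand at positions -67 to -55 from the RefSeq start, and before none of the other 6 genes, where 0.338% of 32851 promoter windows of the same length held it. The single half-site lay before Cd36, before Slc27a2 and, inside the repeat and again in the part not shown, before Fabp1, and 14% of all windows held it. All 250 bases of the Slc27a2 window lay in annotated exons of that gene. TATAAA lay before Fabp1, also in the part not shown, and 12.4% of windows held it. These matches describe letters in a short window and not binding.

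Of the 10 genes, 4 were expressed at a lower level after VSG, 1 at a higher level and 5 did not pass the test. Cd36, Fabp2, Vldlr and Slc27a4 fell and Fabp5 rose, each at an adjusted p under 0.05 by edgeR over all genes tested. Among all tested genes 14.7% passed in either direction, 7.87% as lower and 6.79% as higher. The median log2 fold change (VSG over sham) was -0.44 over the 10 genes and 0.03 over all tested genes. Because the 10 genes were chosen with earlier results of these data known, these shares and medians do not test the set. For the 5 genes that passed, and no other of the 10, all VSG values lay to one side of all sham values. Such a separation held for 39.7% of all tested genes, 19.8% with VSG lower and 19.8% with VSG higher. Cd36 and Fabp2 passed under all 14 alternative settings. Leaving out 1 library brought the count of 5 down to 4 (VSG replicate 5), 3 (sham replicate 1 or VSG replicate 4) or 2 (sham replicate 2, sham replicate 3 or VSG replicate 6). The share of all tested genes that passed was then 8.19%, 5.34% and 1.07% with sham replicate 1, 2 or 3 missing, and 7.32%, 18.4% and 1.42% with VSG replicate 4, 5 or 6 missing.

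**Figure D1:**
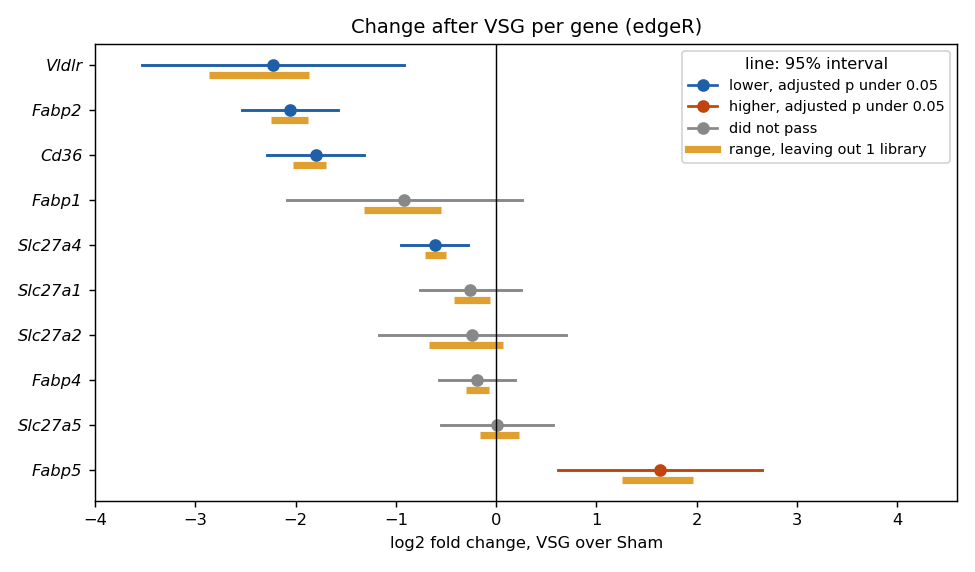
Log2 fold change (VSG over sham, horizontal axis) of the 10 genes by edgeR, with the 95% interval as a thin line and, in yellow, the range of the estimates when 1 of the 6 libraries was left out. Vldlr, Fabp2, Cd36 and Slc27a4 lie below 0 with their intervals, Fabp5 lies above 0, and the intervals of the other 5 genes include 0.

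Cd36 is the membrane glycoprotein of long-chain fatty acid uptake (GRCm38 chromosome 5, 17781690 to 17888801, minus strand, 17 merged exon blocks). Its level in CPM, read counts scaled to library size with TMM factors, was 433, 518 and 516 in sham replicates 1 to 3 and 181, 120.5 and 120.2 in VSG replicates 4 to 6. All VSG livers lay far below all sham livers, and the lowest sham library was 2.39 times the highest VSG library. The fall was 3.48-fold, and its 95% interval on the log2 scale ran from -2.28 to -1.31. Cd36 ranked at position 112 of the 14454 genes by p. Its adjusted p, 0.00732 by edgeR, was highest without sham replicate 3, at 0.0489.

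Vldlr, the receptor for very low density lipoprotein (chromosome 19, 27216484 to 27254231, plus strand), was at 8.42, 23.2 and 18.05 CPM in sham livers and at 3.08, 5.94 and 1.53 CPM in VSG livers. The groups did not overlap, but sham replicate 1 lay well below the other two sham livers, at 1.42 times VSG replicate 5. Its log2 fold change of -2.23 (SE 0.548, adjusted p 0.0414 by edgeR) was the most negative of the 10 genes and had the widest interval, from -3.53 to -0.92. The counts behind it were low, from 32 to 139 in VSG libraries and from 228 to 508 in sham libraries. Dropping sham replicate 2 or 3 raised the adjusted p to 0.106 or 0.136, dropping VSG replicate 4 or 6 raised it to 0.0964 or 0.109, and limma-voom gave 0.0610. With 1 library dropped the log2 fold change ran from -2.86 (VSG replicate 5) to -1.87 (VSG replicate 6).

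Of the 4 fatty acid transport proteins, Slc27a4 fell and the others did not pass the test. Slc27a4 (FATP4, chromosome 2, 29802634 to 29817522, plus strand) is a broadly expressed acyl-CoA synthetase of the endoplasmic reticulum. It was at 37.8, 40.2 and 46.7 CPM in sham livers and at 28.8, 30.1 and 22.7 CPM in VSG livers. The groups were apart by a small margin, with the lowest sham library at 1.25 times the highest VSG library. The fall was 1.53-fold (log2 fold change -0.61, SE 0.141, adjusted p 0.0350 by edgeR). Its log2 fold change stayed between -0.75 and -0.50 under all alternatives. VSG replicate 5 was the single library whose removal kept the call. The adjusted p was 0.0561 when sham replicate 1 was dropped, 0.0825 for sham replicate 2 and 0.134 for sham replicate 3. It was 0.0656 when VSG replicate 4 was dropped and 0.0965 for VSG replicate 6.

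Slc27a2 and Slc27a5 (FATP2 and FATP5) are the transport proteins typical of hepatocytes, and FATP5 also activates bile acids for conjugation. Slc27a2 (chromosome 2, 126552407 to 126588243, plus strand) was at 1684, 2601 and 1960 CPM in sham livers and at 923, 2635 and 1734 CPM in VSG livers. VSG replicate 4 was the lowest of the 6 libraries and VSG replicate 5 the highest. The log2 fold change of -0.24 had a wide 95% interval, from -1.17 to 0.70, and was 0.07 when VSG replicate 4 was left out. Slc27a5 (chromosome 7, 12988346 to 12998192, minus strand) was at 493, 830 and 610 CPM in sham livers and at 540, 753 and 650 CPM in VSG livers. Its group means were nearly equal, with a log2 fold change of 0.01 and an interval from -0.55 to 0.57, and its sign turned under 7 of 14 alternatives. Slc27a1 (FATP1), better known from muscle and adipose tissue (chromosome 8, 71568882 to 71587302, plus strand), was at 11.4, 18.4 and 13.8 CPM in sham livers and at 12.4, 14.0 and 9.97 CPM in VSG livers. The groups overlapped (log2 fold change -0.26, interval from -0.76 to 0.24).

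**Figure D2:**
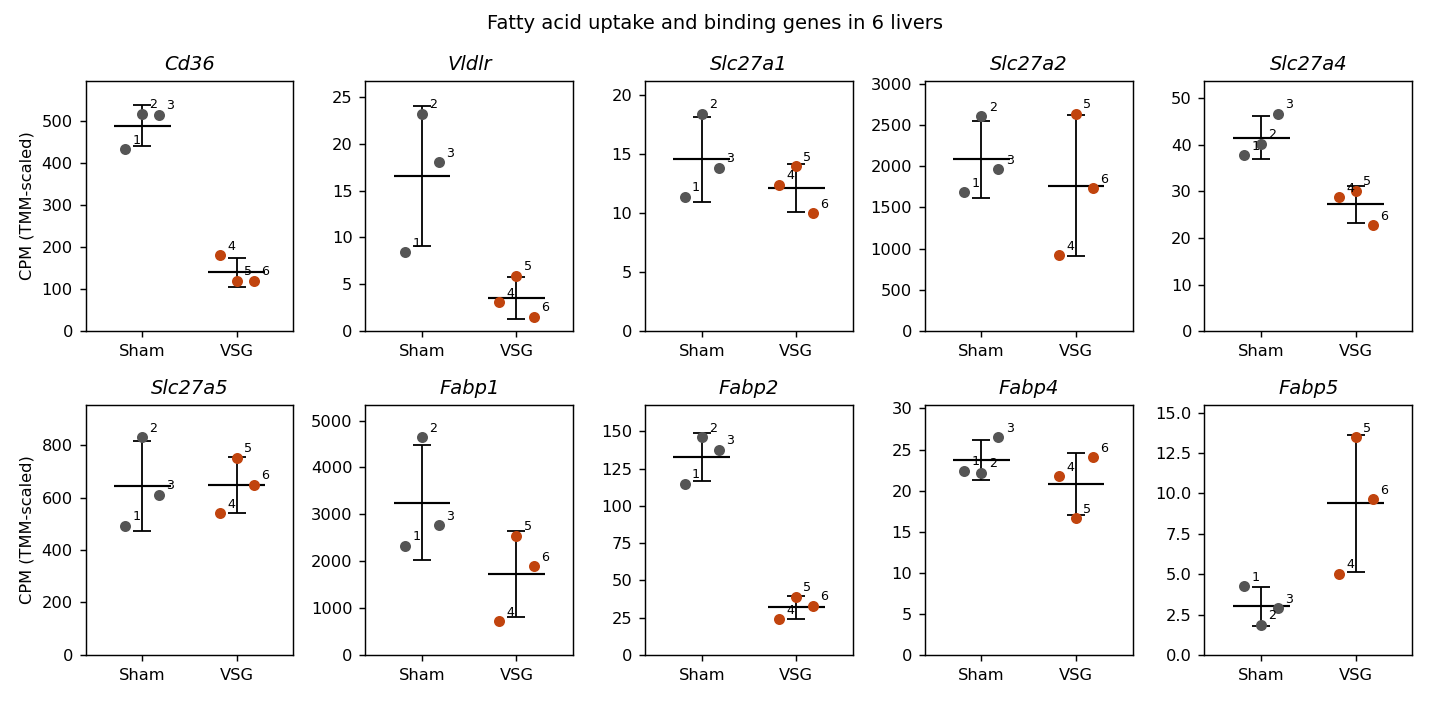
CPM scaled by TMM factors (vertical axes start at 0) of the 10 genes in the 3 sham and the 3 VSG livers, with points numbered by replicate and with mean and SD in black. The points of Cd36, Fabp2, Vldlr, Slc27a4 and Fabp5 do not overlap between the groups, and VSG replicate 4 is the lowest of the 6 livers for Fabp1 and Slc27a2.

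Fabp2 fell most clearly among the binding proteins. Fabp2 is the intestinal fatty acid binding protein (chromosome 3, 122895072 to 122899506, plus strand, 4 exons) and is also transcribed in mouse liver. It was at 115, 146 and 138 CPM in sham livers and at 23.8, 39.0 and 33.1 CPM in VSG livers. The sham livers were close to each other and the lowest of them was 2.95 times the highest VSG liver. The fall was 4.16-fold (log2 fold change -2.06, SE 0.200, adjusted p 0.00546 by edgeR), with estimates between -2.24 and -1.88 under the 14 alternatives. Of 7 enterocyte markers, 6 were at or near 0, with at most 12 counts of Vil1, 6 of Sis, 13 of Alpi and 2 each of Lct, Rbp2 and Cdx2 in a library. The other was Apoa4, an apolipoprotein gene that mouse liver also expresses, which fell from 3227 ± 1070 to 296 ± 48.9 CPM (log2 fold change -3.45, adjusted p 0.00389). The antisense gene 4933405D12Rik spans part of the locus but shares 0 exon bases with Fabp2 and had 6 counts in all libraries together.

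Fabp1 is the liver fatty acid binding protein, one of the most abundant cytosolic proteins of hepatocytes (chromosome 6, 71199827 to 71205023, plus strand). It was at 2332, 4641 and 2764 CPM in sham livers and at 724, 2542 and 1898 CPM in VSG livers. VSG replicate 4 stood far below the others, and VSG replicate 5 lay above the lowest sham liver. The VSG mean was 53.0% of the sham mean, but the difference did not pass the test (log2 fold change -0.91, SE 0.493, adjusted p 0.235 by edgeR). The 95% interval ran from -2.09 to 0.26. The log2 fold change was -0.55 without VSG replicate 4 and -1.32 without VSG replicate 5, and under none of the 14 alternatives was the adjusted p under 0.118.

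Fabp4 and Fabp5 are better known from fat cells, capillary endothelium, epidermis and macrophages. Of these, Fabp5 passed the test and Fabp4 did not. Fabp4 (chromosome 3, 10204088 to 10208576, minus strand) was at 22.4, 22.2 and 26.5 CPM in sham livers and at 21.7, 16.6 and 24.0 CPM in VSG livers. The groups overlapped, and its log2 fold change of -0.19 had a 95% interval from -0.57 to 0.19 (adjusted p 0.429 by edgeR). Fabp5 (chromosome 3, 10012548 to 10016607, plus strand) was at 4.25, 1.87 and 2.89 CPM in sham livers and at 5.02, 13.5 and 9.64 CPM in VSG livers. Each VSG liver was above each sham liver, although VSG replicate 4 was only 1.18 times sham replicate 1. The rise was 3.11-fold, with an interval on the log2 scale from 0.61 to 2.66 and an adjusted p of 0.0487 by edgeR, just inside the threshold. Under 9 of the 14 alternatives it did not pass. Dropping sham replicate 1, 2 or 3 gave an adjusted p of 0.0622, 0.121 or 0.166, and dropping VSG replicate 5 or 6 gave 0.0810 or 0.132. RLE size factors gave 0.0507, total counts 0.0763, limma-voom 0.0740 and limma on log2(FPKM + 1) 0.0667. Of 8 adipocyte markers, 4 were at or near 0, with at most 1 count of Adipoq, 2 of Plin1 and 1 of Retn in a library and 0 of Lep in all. Adipsin (Cfd) had 2, 66 and 42 counts in the sham livers and 0, 4 and 4 in the VSG livers, too few to be tested. The other 3, Lipe, Pck1 and Car3, are also transcribed in liver and could be tested, and 0 passed by edgeR, 1 had an unadjusted p under 0.05 and 1 was lower with DESeq2. The largest difference was that of Car3, a carbonic anhydrase, with 1378, 4306 and 2543 CPM in the sham livers and 38.8, 608 and 139 CPM after VSG (log2 fold change -3.39, adjusted p 0.0666 by edgeR).

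Levels were compared between genes as FPKM, here CPM per kilobase of the longest annotated coding transcript. The exon length of the deposited table is far longer than that transcript for Fabp4 (4489 against 896 bases), because merged transcripts there cover the introns too. Sham livers held 5869 ± 2219 FPKM (SD, n = 3) of Fabp1, 713 ± 161 of Slc27a2 and 282 ± 74.7 of Slc27a5. Below these 3 came Cd36 at 144 ± 14.3 FPKM and Fabp2 at 138 ± 16.7 FPKM, then Fabp4, Slc27a4, Slc27a1, Fabp5 and Vldlr, from 26.4 ± 2.71 down to 2.08 ± 0.942 FPKM. The ranges of 3 libraries overlapped between the neighbours Cd36 and Fabp2, Slc27a1 and Fabp5, and Fabp5 and Vldlr. In VSG livers Fabp1 was again first, at 3113 ± 1668 FPKM, and Vldlr last, at 0.441 ± 0.281 FPKM. Fabp5, at 9.50 ± 4.28 FPKM, had moved from position 9 to position 7. On the exon length of the deposited table, which is 3567 bases for Fabp5 against 987 for its coding transcript, it was at position 10 in sham livers, below Vldlr, and at position 8 after VSG, at 2.63 ± 1.19 FPKM against 6.17 ± 0.897 for Slc27a4. The VSG ranges overlapped between Slc27a2 and Slc27a5, Cd36 and Fabp2, Fabp2 and Fabp4, and Fabp5 and Slc27a4.

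**Figure D3:**
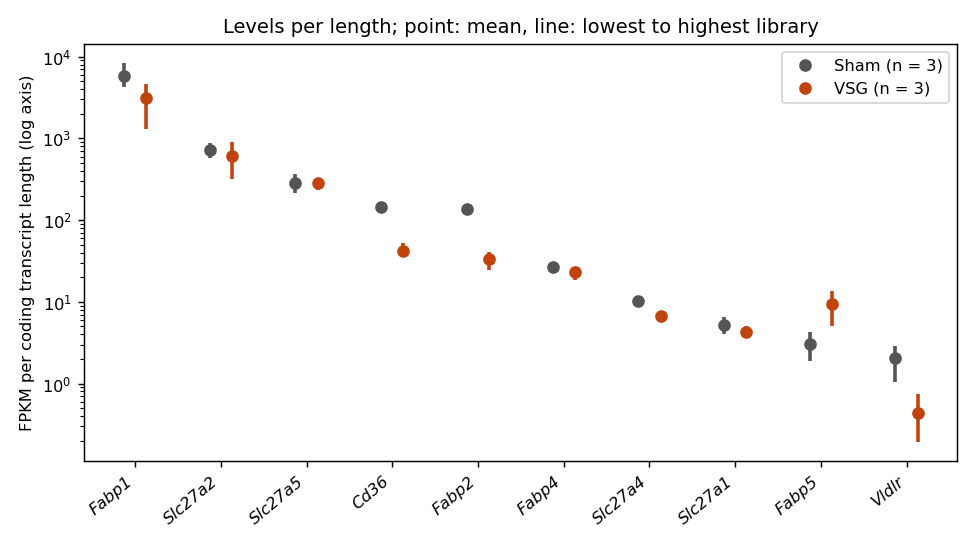
FPKM per length of the longest coding transcript (vertical log axis) of the 10 genes in sham and VSG livers, in the order of the sham means. Points are means of 3 libraries and lines run from the lowest to the highest library. Fabp1 leads in both groups, the ranges of Cd36 and Fabp2 lie lower after VSG than in sham livers, and the mean of Fabp5 on this length lies above Slc27a4 and Slc27a1 after VSG and below them in sham livers.

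Within the 4 binding proteins, Fabp1 made up 97.0% ± 0.760 of the summed FPKM in sham and 97.5% ± 1.28 in VSG livers. The share of Fabp2 was 2.73%, 1.76% and 2.76% in sham livers and 1.81%, 0.865% and 0.978% in VSG livers. These shares overlapped, with sham replicate 2 just below VSG replicate 4. The share of Fabp5 was between 0.0221% and 0.0986% in sham livers and between 0.279% and 0.373% in VSG livers, with no overlap. Because Fabp1 makes up most of the sum, this share also depends on Fabp1. The highest share was that of VSG replicate 4, where Fabp5 (5.02 CPM) and Fabp1 (724 CPM) were both the lowest of the VSG livers. Within the 4 transport proteins, the share of Slc27a2 was 71.6%, 70.2% and 70.3% in sham livers and 56.1%, 72.6% and 67.0% in VSG livers. The sham shares were thus nearly constant while the VSG shares were spread out, and the share of Slc27a5 was highest in VSG replicate 4, at 41.9%, where its CPM was the lowest of the VSG livers. With 3 libraries per group an exact permutation test of such a share cannot go below a p of 0.1, and none was run.

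Several of the genes varied together between livers of the same group. Of the 10 genes, 7 were highest in sham replicate 2 among sham livers and 8 were lowest in sham replicate 1. Among VSG livers 8 were highest in replicate 5 and 5 were lowest in replicate 4, whose Cd36 was in contrast the highest of the 3. The 8 hepatocyte markers summed to 72716, 110036 and 74644 CPM in the sham livers and to 57275, 86199 and 86289 CPM in the VSG livers. This sum was highest in sham replicate 2 and lowest in VSG replicate 4, but most of it was Alb, at 81833 and 35829 CPM in these libraries. Ttr had the same highest and lowest library, and Tat was highest in sham replicate 2 but lowest in sham replicate 3. The others, Apoa1, Apob, Hnf4a, Cps1 and Asgr1, were highest in a VSG liver, so the markers did not share an order. The largest within-group ratio of highest to lowest library was 3.89 for Vldlr, 3.51 for Fabp1 and 2.85 for Slc27a2, all in VSG livers. That ratio was at most 1.68 in both groups for Cd36, Fabp2, Fabp4, Slc27a1, Slc27a4 and Slc27a5.

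Markers of other cell types were set beside these genes, because Cd36, Fabp4 and Fabp5 are also transcribed in macrophages and endothelium. In whole tissue, fewer cells of a type and less RNA per cell cannot be told apart. Of 10 neutrophil and monocyte markers, 8 rose after VSG and none fell. Those that rose were S100a8, S100a9, Mpo, Elane, Ly6g, Ngp, Camp and Ltf, all abundant in neutrophils. The summed level of the list went from between 10.1 and 36.1 CPM in sham livers to 1826, 138 and 827 CPM in VSG replicates 4, 5 and 6. Of 10 Kupffer cell and macrophage markers, 4 rose, namely Clec4f, Vsig4, Timd4 and Marco, and none fell. Their summed level was 900, 441 and 649 CPM in sham livers and 2444, 869 and 1575 CPM in VSG livers. VSG replicate 4, with the highest levels of both marker lists, had the lowest Fabp5 and the highest Cd36 of the VSG livers, and VSG replicate 5, with the lowest levels of both, had the highest Fabp5. Among sham livers the order was the same for all 3 measures, with replicate 1 highest and replicate 2 lowest in both marker sums and in Fabp5. Without VSG replicate 4 the log2 fold change of Fabp5 was 1.94 and that of Cd36 was -2.02. Of 8 endothelial markers 0 passed by edgeR, 1 had an unadjusted p under 0.05 and 0 passed with DESeq2, and the sham sums of 297 to 352 CPM overlapped the VSG sums of 297 to 375 CPM. Of 8 hepatocyte markers 0 passed by edgeR, 1 had an unadjusted p under 0.05 and 1 passed with DESeq2. Of 7 stellate cell markers 2 fell by edgeR, Reln and Colec11, 6 had an unadjusted p under 0.05, 5 were lower with DESeq2, and all 7 had a negative log2 fold change. The summed level of this list went from between 576 and 738 CPM in sham livers to between 262 and 476 CPM in VSG livers. Of all tested genes 7.87% were lower and 6.79% higher by edgeR, and 22.7% passed with DESeq2. An unadjusted p of 0.0540 by edgeR, that of Des, already ranked at position 5040 of the 14454 genes. The part of these cells in the changes of Cd36, Vldlr and Fabp5 was not tested.

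**Figure D4:**
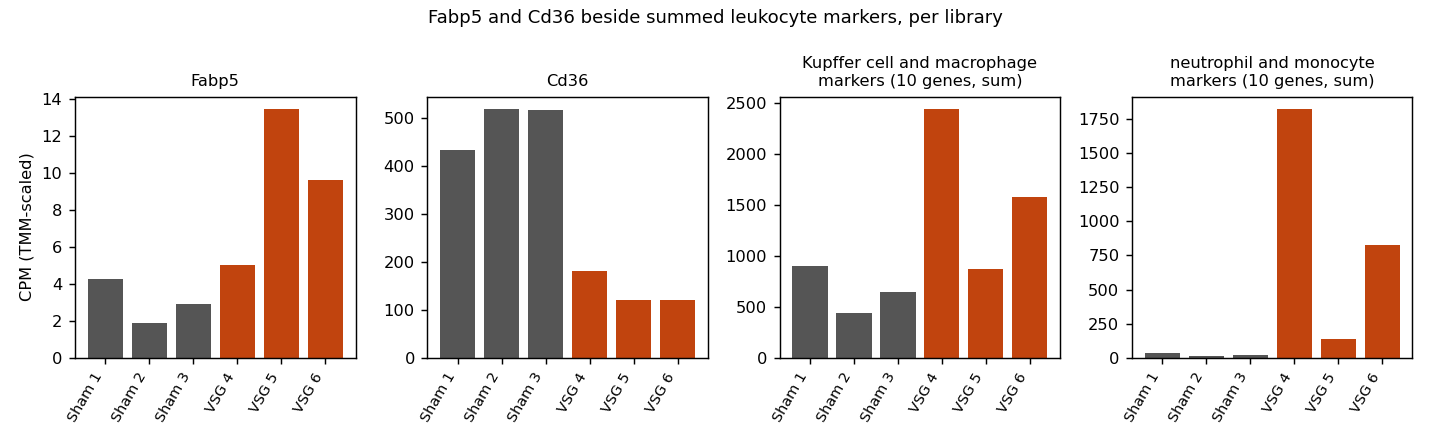
CPM (vertical axes start at 0) of Fabp5, of Cd36 and of the summed 10 Kupffer cell and macrophage markers and 10 neutrophil and monocyte markers in each of the 6 livers, sham in grey and VSG in red. Of the VSG livers, replicate 4 is highest in both marker sums and lowest in Fabp5, and of the sham livers, replicate 1 is highest and replicate 2 lowest in both marker sums and in Fabp5.

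Of 57 further genes of fatty acid and lipoprotein handling, 50 could be tested, 6 of them were lower after VSG and 2 were higher, with a median log2 fold change of -0.06 over the 50. These 8 of 50 are a share near the 14.7% of all tested genes that passed. The share was less alike under other settings, at 16 of 50 against 13.8% of all genes with total counts and 12 of 56 against 8.38% with the filter of 1 count. Among relatives of the 10 genes, 6 of 8 were too low to be tested, among them Fabp3, Fabp6 and Slc27a6, with at most 13 counts in a library. Fabp7 and Slc27a3 could be tested, with log2 fold changes of 0.45 and 0.47, of which 0 passed by edgeR, 0 had an unadjusted p under 0.05 and 0 passed with DESeq2.

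The list of acyl-CoA synthetases, carriers and related enzymes had 13 tested genes, of which 2 fell by edgeR, 7 had an unadjusted p under 0.05 and 5 were lower with DESeq2. Of all tested genes 7.87% were lower by edgeR and 1772 of 14454 were lower with DESeq2. A gene of this list with an unadjusted p of 0.0444 by edgeR ranked at position 4674 of all tested genes. The 2 that fell, Acot2 and Got2, are neither synthetases nor acyl-CoA carriers. Acot2, a mitochondrial acyl-CoA thioesterase, fell from 31.4 ± 4.24 to 3.98 ± 1.05 CPM (log2 fold change -2.98, adjusted p 0.00197 by edgeR). Acot2 belongs to a cluster of similar genes, so reads could have been shared with Acot1, which had a log2 fold change of -2.42 (adjusted p 0.0659). That of Acot1 was -1.59 without sham replicate 2, its highest library, and -3.22 without VSG replicate 5, where it passed (adjusted p 0.0346). It also passed with DESeq2 (adjusted p 0.00189), total counts (0.0430) and the filter of 1 count (0.0229). Got2, the mitochondrial aspartate aminotransferase also described as a fatty acid binding protein of the plasma membrane, fell from 207 ± 26.8 to 130 ± 25.1 CPM (log2 fold change -0.67, adjusted p 0.0489), which passed under only 7 of the 14 alternatives. When sham replicate 1, 2 or 3 was missing its adjusted p was 0.0639, 0.126 or 0.158, and for VSG replicates 4 and 6 it was 0.102 and 0.153. Acsl5, a long-chain acyl-CoA synthetase, came next in the list (log2 fold change -0.71, adjusted p 0.0533).

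Among 12 lipases and receptors of lipoproteins, Lipg fell and Lrp1 rose. Lipg, endothelial lipase, went from 38.4 ± 19.2 to 9.21 ± 2.71 CPM (log2 fold change -2.06, adjusted p 0.0240 by edgeR). Lrp1, the remnant receptor of hepatocytes, went from 1133 ± 91.5 to 2220 ± 177 CPM (log2 fold change 0.97, adjusted p 0.0201), and it thus moved opposite to Vldlr. Lipg no longer passed when sham replicate 3 (adjusted p 0.0899) or VSG replicate 6 (0.0918) was missing. The same held for Lrp1 with sham replicate 2 (0.0597), sham replicate 3 (0.113) and VSG replicate 6 (0.0843). Lpl, the lipase whose products enter through CD36, ranged widely in sham livers, from 1058 to 6002 counts, and did not pass. Its log2 fold change of 0.31 had no stable direction, since dropping sham replicate 1 gave 1.06, sham replicate 2 gave -0.069 and VSG replicate 4 gave -0.066.

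Of 10 genes of CD36 trafficking and its partners, Cav2, a caveolin, rose from 6.01 ± 1.18 to 12.8 ± 1.10 CPM (log2 fold change 1.08, adjusted p 0.0165 by edgeR) and the other 9 did not pass. For Cav2 the adjusted p was 0.0641 when sham replicate 3 was missing and 0.0713 for VSG replicate 6. Of 13 nuclear receptors and coactivators, 3 fell and none rose by edgeR, and 4 were lower with DESeq2. Of all tested genes 7.87% were lower by edgeR and 1772 of 14454 were lower with DESeq2. The level of Pparg, the PPAR of fat storage and a known regulator of Cd36, went from 29.1 ± 1.51 down to 12.4 ± 1.87 CPM (log2 fold change -1.23, adjusted p 0.00692), and it passed under all 14 alternatives. Nr1i2, the pregnane X receptor, had a log2 fold change of -0.88 (adjusted p 0.0322) and the coactivator Ppargc1a one of -0.79 (adjusted p 0.0371). Both were past the threshold no longer when sham replicate 2, sham replicate 3, VSG replicate 4 or VSG replicate 6 was missing, with adjusted p values from 0.0776 to 0.131. Ppara, the main PPAR of the liver, had 250 ± 53.8 CPM in the sham livers, against 148 ± 68.9 CPM after VSG, and did not pass (log2 fold change -0.76, adjusted p 0.217).

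**Figure D5:**
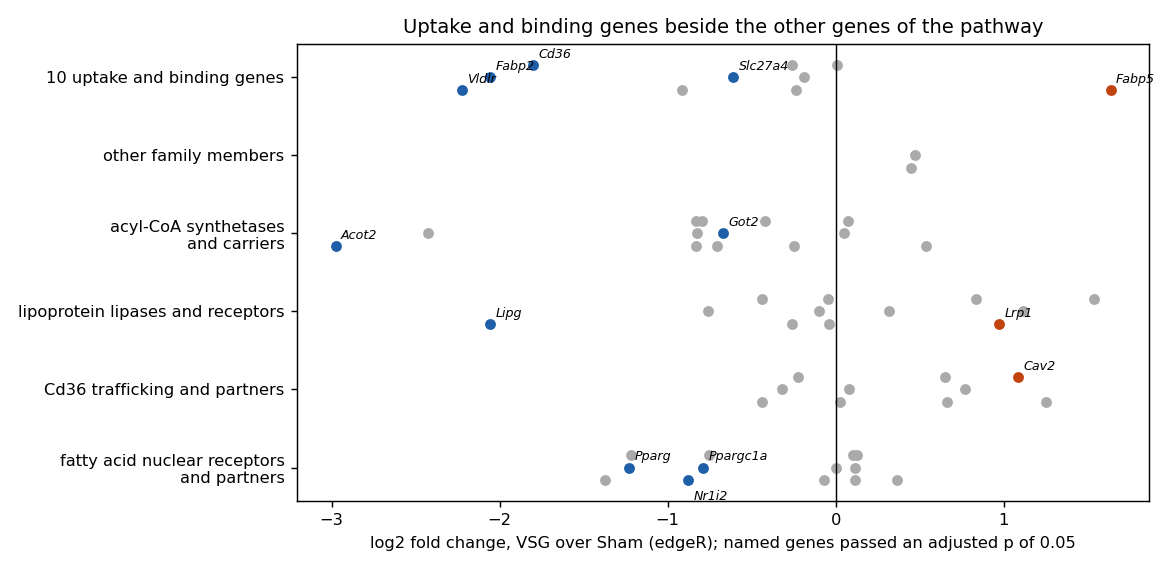
Log2 fold change (VSG over sham, horizontal axis) by edgeR of the 10 uptake and binding genes and of the tested genes of 5 further lists, 1 list per row, with points shifted vertically for legibility. Named blue points are lower and named red points higher at an adjusted p under 0.05, and grey points did not pass. Of the 10 genes 5 are named, against 8 of the 50 others. Genes and lists were chosen with earlier results of these data known.

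The genes whose profile over the 6 libraries was closest to that of Cd36, among 9955 genes with a mean of at least 5 CPM, were Slc16a5, Pla2g6, E330011O21Rik and Endod1. Likeness was the root mean square difference of log2 CPM after centring, which was between 0.22 and 0.24 for these 4. With 2 separate groups this measure puts genes with a similar fall first, and 19.8% of all tested genes were lower after VSG without overlap. It is thus no sign of shared regulation. Slc16a5, the closest, had 44.0, 52.4 and 40.7 CPM in the sham livers, against 19.9, 10.6 and 15.1 CPM after VSG. Pla2g6, a calcium-independent phospholipase, had 58.1, 84.9 and 80.2 CPM in the sham livers, against 23.6, 24.2 and 21.6 CPM after VSG. The genes closest to Vldlr were Osbpl5, G0s2, Aacs and Lamb3, at 0.29 to 0.37. Osbpl5, the closest, had 6.39, 19.8 and 13.9 CPM in the sham livers, against 1.81, 3.21 and 1.67 CPM after VSG. G0s2, an inhibitor of adipose triglyceride lipase, had 46.8, 98.3 and 87.9 CPM in the sham livers, against 13.4, 25.3 and 13.8 CPM after VSG. Aacs, which activates acetoacetate for lipid synthesis, had 23.1, 74.7 and 58.9 CPM in the sham livers, against 8.33, 16.97 and 9.44 CPM after VSG.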

How the data were processed

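Poly(A)-selected, strand-specific libraries from about 40 mg of liver were sequenced, 1 library per mouse, with 3 sham and 3 VSG mice grouped by the sample titles. The authors aligned reads to mm10 with STAR 2.6.0 and counted them with featureCounts, given as 2.0.3 in the submitters' processing notes, and the deposited values are raw read counts per gene. The annotation release and the treatment of strand and of reads with several matches are not given in the sources used here, so genes with near-identical copies are uncertain. Gene identifiers matched GENCODE M21 (GRCm38) exactly for 54487 of 55385 genes, all with the same start and end, and for 657 more without the version.

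Total counts ran from 22804397 to 24191778 per library, and 3 counts, taken as the floor, were 0.111 to 0.143 CPM. This floor covers counting error only. The p-values set the difference between the groups against the spread between animals within a group, with 3 animals in each. Genes passing filterByExpr (minimum count 10, total 15) were scaled with TMM factors (0.897 to 1.15) and tested with the quasi-likelihood test of edgeR 4.0.16 in R 4.3.3, with group as the only term. Adjusted p-values are Benjamini-Hochberg values over all 14454 genes tested. Standard errors were derived from the fold change and the F statistic. Alternatives were DESeq2 1.42.0, limma-voom and limma on log2(FPKM + 1) (limma 3.58.1), RLE size factors, total counts, other filters, a prior count of 2 and the removal of each library. The fit was tested on simulated data.

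The 10 genes and all lists were chosen with earlier results of these data known. All 10 genes are named. In each pathway list the genes that passed are named, plus genes a result turns on. Acot1, Acsl5, Lpl, Ppara, Fabp7 and Slc27a3 and the marker genes were named after their values were seen. The result of 1 gene of the lists is not reported here.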

Additional observations from a re-analysis of the deposited data

How the results depend on the processing

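No paired analysis was possible because the replicate numbers are not shared between the groups. For results that changed, the cause was not tested. Of the 140 values of single genes under 14 alternatives, 113 kept their direction and their side of the threshold, 19 lost the call and 8 changed sign. Those that changed sign were Slc27a2 (-0.66 to 0.071 when 1 library was left out, above 0 without VSG replicate 4) and Slc27a5 (-0.16 to 0.23 when 1 library was left out), the latter with DESeq2 (-0.0027), RLE size factors (-0.0027), total counts (-0.10), a filter of at least 1 count (-0.024), and with sham replicate 1 (-0.16), sham replicate 3 (-0.04) or VSG replicate 5 (-0.13) left out. The 5 genes that passed became 3 with limma-voom, and from 2 to 4 when 1 library was left out. The 2118 of all genes that passed became 3288 with DESeq2 and from 159 to 2732 when 1 library was left out, lowest without sham replicate 3. The 8 further pathway genes that passed became 13 with DESeq2, 16 with total counts and from 2 to 14 when 1 library was left out, lowest without sham replicate 3 or VSG replicate 6 and highest without VSG replicate 5. Total counts shifted the median of all genes by -0.14 on the log2 scale, and 75.7% of the genes that passed were then lower after VSG, against 53.7% with TMM. Under total counts Cd36, Fabp2, Vldlr and Slc27a4 passed as lower by more than that shift. On the log2(FPKM + 1) scale the log2 fold change of Vldlr was -0.94 and that of Fabp5 0.94, a scale that compresses values near 1 FPKM.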
